A study of Mus musculus with 6 samples.

Results

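The regions described here are accessible stretches of chromatin that stayed called throughout treatment but whose strongest point lay elsewhere in treated cells. They come from NMuMG cells, an established line of normal mouse mammary gland epithelium of wild-type genotype, given the SWI/SNF inhibitor BRM014 for 6 h, BRM014 for 30 h, or the vehicle DMSO, with 2 biological replicates in each group. Chromatin was assayed by ATAC-seq, in which the transposase Tn5 cuts and tags open DNA, and the authors deposited 1 peak list per group made from both replicates together. DMSO was given for 30 h going by the name of its list, which leaves the 6 h cells without vehicle-treated cells of equal duration, and the extraction protocol also speaks of a TGFβ treatment that no sample label carries. All values rest on 1 cell line and 1 pooled list per group, so no spread between replicates was at hand and no test between treatments was made.

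Members were chosen by the position of the main summit, the entry with the highest fold enrichment of a region. A DMSO region was counted as kept when it overlapped exactly 1 region at 6 h and 1 at 30 h, neither of which touched another DMSO region. Of 42310 DMSO regions 21888 were kept in this way, and in 626 of them the main summit lay at least 100 bp from the DMSO main summit at 6 h and again at 30 h. That is 2.86% of the kept regions (95% Wilson interval 2.65 to 3.09%) and 1.48% of all DMSO regions. Intervals of shares throughout are Wilson intervals at 95%, and cover counting error only. Summit positions, fold enrichments and distances between lists were used for this choice, so what follows on them is a description.

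SWI/SNF (BAF) complexes use the ATPases BRG1 or BRM to slide or evict nucleosomes, and many enhancers of mammalian cells need them to stay accessible. BRM014 blocks both ATPases. A summit of an ATAC-seq region marks the stretch cut most often, usually free of a nucleosome and bound by transcription factors, and a wide region can hold several such stretches side by side. No mm9 genome or gene annotation was used here, so regions are named by chromosome and position on the build mm9, without genes or sequences, and the epithelial identity of the cells was not checked on marker genes.

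In most kept regions the main summit hardly moved between lists. The median distance between main summits was 12.0 bp between the 6 h and DMSO lists, 9.0 bp between the 30 h and DMSO lists, and 11 bp between the 30 h and 6 h lists. Within 50 bp lay 89.5%, 92.7% and 91.4% of regions in these pairs of lists. Few regions, 4.22%, 2.33% and 3.18%, lay between 51 and 99 bp. A distance of at least 100 bp was found in 1372 regions between 6 h and DMSO, 6.27% of those kept (5.95 to 6.60%). Between 30 h and DMSO it was found in 1097 regions, 5.01% (4.73 to 5.31%). Both comparisons share the DMSO list. The pair of treated lists, which does not use it, had 1179 regions that far apart, 5.39% (5.10 to 5.69%), a share between the other two.

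**Figure D1:**
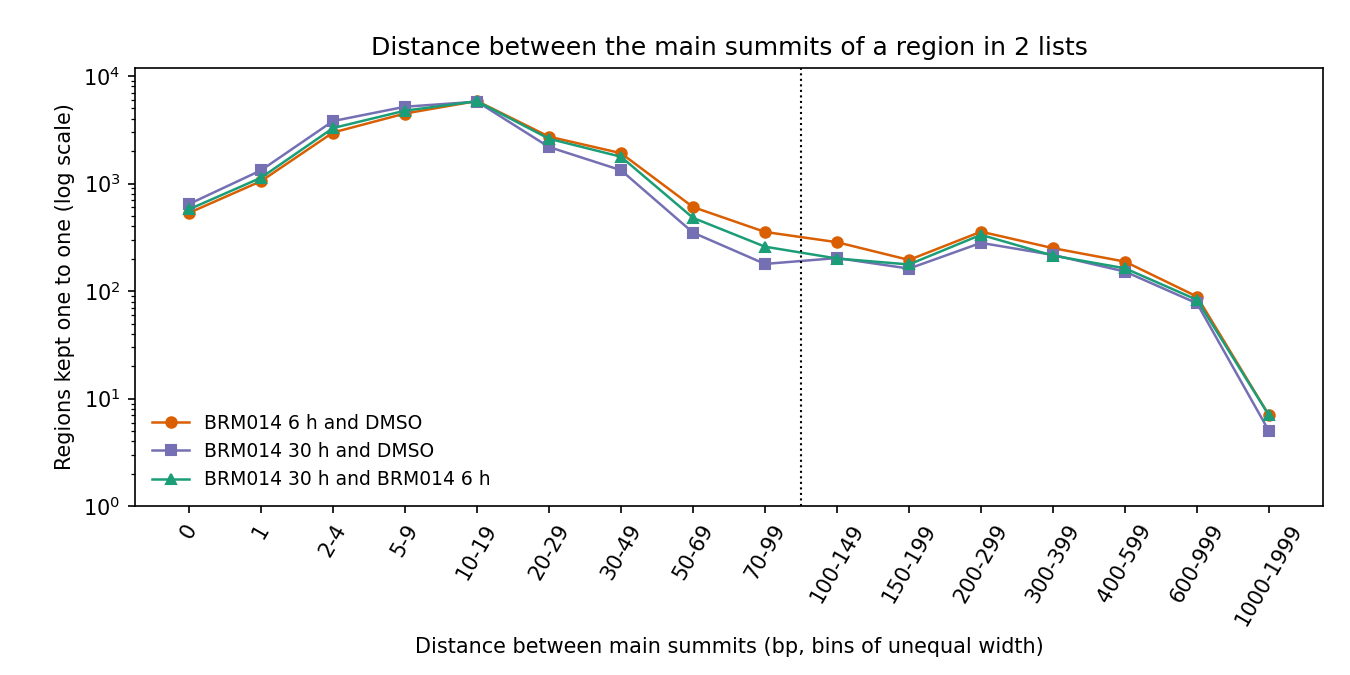
Number of the 21888 regions kept one to one (log scale) by the distance between their main summits, in bins of unequal width, for each pair of lists. Most regions sit below 50 bp in every pair, and the numbers dip at 150 to 199 bp before the wider bin of 200 to 299 bp; the dotted line marks 100 bp.

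Which list stood apart from the other two can be counted the same way for all 3 lists. In 558 regions, 2.55% (2.35 to 2.77%), the DMSO summit was at least 100 bp from both treated summits while these lay within 50 bp of each other. The 6 h summit stood apart in this sense in 644 regions, 2.94% (2.73 to 3.17%), and the 30 h summit in 392, 1.79% (1.62 to 1.98%). All 3 summits were at least 100 bp from each other in 54 regions. Relative depth, recovered from the lowest background of each list, was 63.0% of DMSO at 6 h and 80.7% of DMSO at 30 h. The shallowest list, 6 h, stood apart most often, the deepest, DMSO, came next, and 30 h, of middle depth, stood apart least often. The part of depth in these counts was not tested.

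Within the 626 regions the shift was mostly well over the limit of 100 bp. It ran from 101 to 1539 bp at 6 h, with a median of 278 bp (267 to 291 bp, from binomial ranks) and quartiles of 183 and 384 bp. At 30 h it ran from 100 to 1737 bp, with a median of 282 bp (271 to 293 bp) and quartiles of 184 and 387 bp. Shifts of 100 to 149 bp made up 15.8% at 6 h and 15.2% at 30 h, those of 300 to 399 bp 20.1% and 21.1%, and those of 600 bp or more 8.31% at each time. The new summit lay at the higher coordinate in 325 regions at 6 h and in 328 at 30 h, and at the lower coordinate in 301 and 298.

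The new main summits of both times lay about as close to each other as in kept regions at large. Between the 30 h and 6 h main summits of the 626 regions the median distance was 12.0 bp, with quartiles of 5.0 and 25 bp. In 558 regions, 89.1% (86.5 to 91.3%), it was at most 50 bp, against 91.4% of all kept regions, and in 263 it was under 10 bp. A region with few summits leaves little choice once the DMSO position is barred by the rule, and the part of this was not tested. With 1 DMSO summit the share within 50 bp was 91.3% of 46 regions (79.7 to 96.6%). It was 92.7% of 233 regions with 2 DMSO summits (88.6 to 95.4%), 88.1% of 194 regions with 3 (82.8 to 92.0%) and 84.3% of 153 regions with 4 or more (77.7 to 89.2%).

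At both times the lead usually passed to a summit that was already called in vehicle-treated cells. At 6 h the new main summit lay within 50 bp of a called DMSO summit in 506 of the 626 regions, 80.8% (77.6 to 83.7%), and at 30 h in 520, 83.1% (79.9 to 85.8%). That DMSO summit ranked next after the main one in 92.1% of the 506 regions and in 89.6% of the 520. With 2 DMSO summits, as in 233 of the 626 regions, no lower rank was possible, so these shares are partly fixed by the rule. The share of new main summits at a called DMSO summit depends on the limits used. It was 67.3% at 6 h and 72.2% at 30 h with 25 bp as the same position. With moves counted from 50 bp it was 55.2% and 58.7%. The old position was often still called, though its share depends on the limits as well. A summit within 50 bp of the DMSO main summit was still called in 433 regions at 6 h, 69.2% (65.4 to 72.7%), and in 474 at 30 h, 75.7% (72.2 to 78.9%). With 25 bp as the same position these shares were 53.7% and 63.1%, and with moves counted from 50 bp they were 46.2% and 52.5%. Where no such summit was called, the old position mostly still lay inside the treated region. It fell outside in 19 regions at 6 h, 3.04% (1.95 to 4.69%), and in 8 at 30 h, 1.28% (0.649 to 2.50%). In 174 regions at 6 h and 144 at 30 h the old position lay inside the treated region without a called summit. No such shares are given here for the other kept regions.

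These counts give 4 patterns. Both positions were called before and after, and the lead passed between them, in 379 regions at 6 h (60.5%, 56.7 to 64.3%) and in 428 at 30 h (68.4%, 64.6 to 71.9%). Other summits could rank between them. The median shift of this pattern was 310 bp at 6 h and 308 bp at 30 h. A called DMSO summit took the lead and the old summit was no longer called in 127 regions at 6 h (20.3%) and 92 at 30 h (14.7%). The new position had no DMSO summit and the old one was still called in 54 regions at 6 h (8.63%) and 46 at 30 h (7.35%). Neither position was matched in the other list in 66 regions at 6 h (10.5%) and 60 at 30 h (9.58%). This last pattern was one of short moves, with median shifts of 139 bp at 6 h and 138 bp at 30 h, and 59 of the 66 and 54 of the 60 shifts were under 200 bp.

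Moves were rare in regions with a single DMSO summit. Of 8045 such kept regions 46 moved at both times, 0.572% (0.429 to 0.762%), against 580 of 13843 regions with 2 or more summits, 4.19% (3.87 to 4.54%). With 2, 3, 4 and 5 or more DMSO summits the shares were 3.01%, 4.84%, 6.75% and 8.93%. The treated pair, 30 h and 6 h, also rose with summit number: 1.49% of regions with 1 DMSO summit and 15.6% with 5 or more had main summits at least 100 bp apart. Among the 46 regions with 1 DMSO summit the median shift was 155 bp at 6 h and 148 bp at 30 h. In 16 of them the old summit was still called at 6 h, and in 29 it was not called although its position lay inside the treated region.

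**Figure D2:**
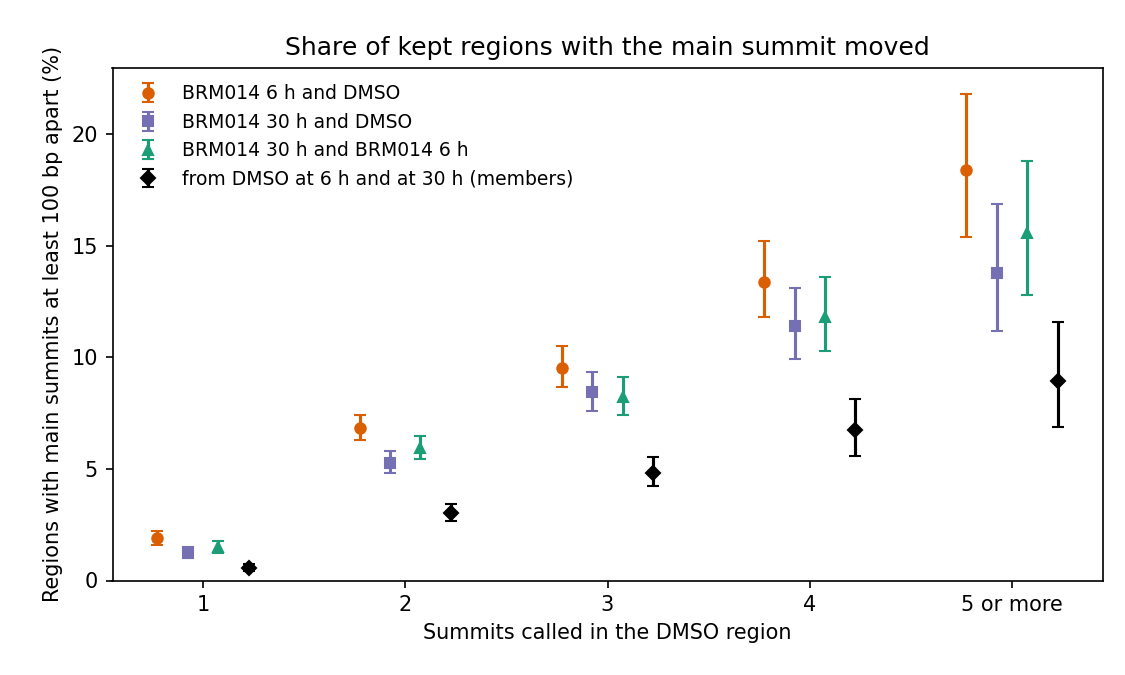
Share of kept regions (%) whose main summits lay at least 100 bp apart, by the number of summits called in the DMSO region, for each pair of lists and for the regions moved from DMSO at both times; bars are 95% Wilson intervals. The share moved at both times goes from 0.572% with 1 summit to 8.93% with 5 or more, and the pair of treated lists rises from 1.49% to 15.6%.

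The rule needs room for positions 100 bp apart, and the regions were accordingly wide. Their median width was 884 bp at 6 h, 911 bp at 30 h and 976 bp in DMSO, against 685, 723 and 790 bp for the 21262 other kept regions. The DMSO widths were close among regions with 2 DMSO summits, 830 and 814 bp, and with 3, 1036 and 1020 bp, the moved regions first. They were farther apart with 4 or more, 1363 and 1294 bp, and with 1, 692 and 574 bp. Widths changed alike in both sets. The treated width minus the DMSO width had a median of -66.0 bp at 6 h and -25.0 bp at 30 h in moved regions, and of -65.0 and -30.0 bp in the others. Summits of moved regions stood farther from the middle. The DMSO main summit lay a median of 142 bp from the centre of its region, against 115 bp in the other kept regions with 2 or more summits. At 6 h these distances were 138 and 97.5 bp, and at 30 h 150 and 108 bp. All moved regions were used here, those with 1 DMSO summit included, and the sets were not matched for width or summit number.

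Moved regions were of lower fold enrichment than other kept regions of the same list. Their median fold enrichment was 11.3 at 6 h, 11.8 at 30 h and 12.1 in DMSO, against 13.9, 15.3 and 15.8 in the other kept regions. With 2 DMSO summits the DMSO medians were 13.3 and 16.6, with 3 they were 12.1 and 16.0, and with 4 or more 10.2 and 14, the moved regions first. Among kept regions with 2 or more DMSO summits, those in the lowest quintile of DMSO fold enrichment had moved in 9.70% of cases (8.55 to 11%) and those in the highest in 0.309% (0.157 to 0.609%). By quintile of the authors' -log10 p the range was narrower, 8.04% in the lowest (6.95 to 9.29%) and 2.28% in the highest (1.80 to 2.87%). Regions with 1 DMSO summit, 46 of them moved, differed by measure. Their DMSO fold enrichment had medians of 12.5 for moved and 15.2 for other regions, but their -log10 p had 173 for moved and 142 for others. The distance to the next DMSO region had medians of 8490 bp for moved and 7924 bp for other kept regions. With 3 DMSO summits the order was turned, 8998 and 10320 bp, and likewise with 4 or more, 8737 and 11214 bp. The medians were nearly equal with 1 DMSO summit, 5830 and 5801 bp, and with 2, 8146 and 8221 bp.

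The DMSO lead that was lost had been small. In the 580 moved regions with 2 or more DMSO summits, the fold enrichment of the DMSO main summit was a median of 1.11 times that of the next summit (quartiles 1.04 and 1.25). In the 13263 other kept regions with 2 or more DMSO summits this ratio had a median of 2.54 (quartiles 1.53 and 4.29). Regions were chosen by the order of these same values, so the contrast is a description only. The leads taken over by the new summits were also modest. Where the old position was still called, the new main summit exceeded it by a median ratio of 1.22 at 6 h (433 regions) and 1.16 at 30 h (474 regions). Ratios of at least 1.5 were found in 23.3% of these regions at 6 h and 13.5% at 30 h, against 8.30% in DMSO for the main summit over the one that led at 6 h.

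Read pileups were solved from the fold enrichment and -log10 p of each entry, to set these leads beside their counting error. For each summit pair the share of the main summit in both pileups was given an exact binomial 95% interval. The interval held 50%, an even split, in 66.7% of the 433 regions at 6 h and 69.6% of the 474 at 30 h. In DMSO it held 50% in 76.9% of the 506 regions with a DMSO summit at the 6 h position. For the main over the second summit of a list, it held 50% in 61.2% of moved regions at 6 h, 67.7% at 30 h and 74.1% in DMSO. In other kept regions these shares were 17.4%, 14.7% and 12.7%, each among regions with 2 or more summits in the list. Reads that span both summits count for each of them, and pileups are not independent molecules, so these intervals cover counting error only. Near ties were also usual where a treated list stood apart. With 6 h apart, the main summit led the next one by a median ratio of 1.15 in the 6 h list, and with 30 h apart by 1.09 in the 30 h list. In each of these sets the smallest median lead was that of the list that stood apart, as the 1.11 of DMSO was among moved regions, against 1.24 at 6 h and 1.17 at 30 h. These sets too were chosen by the order of the summits, so this is a description.

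**Figure D3:**
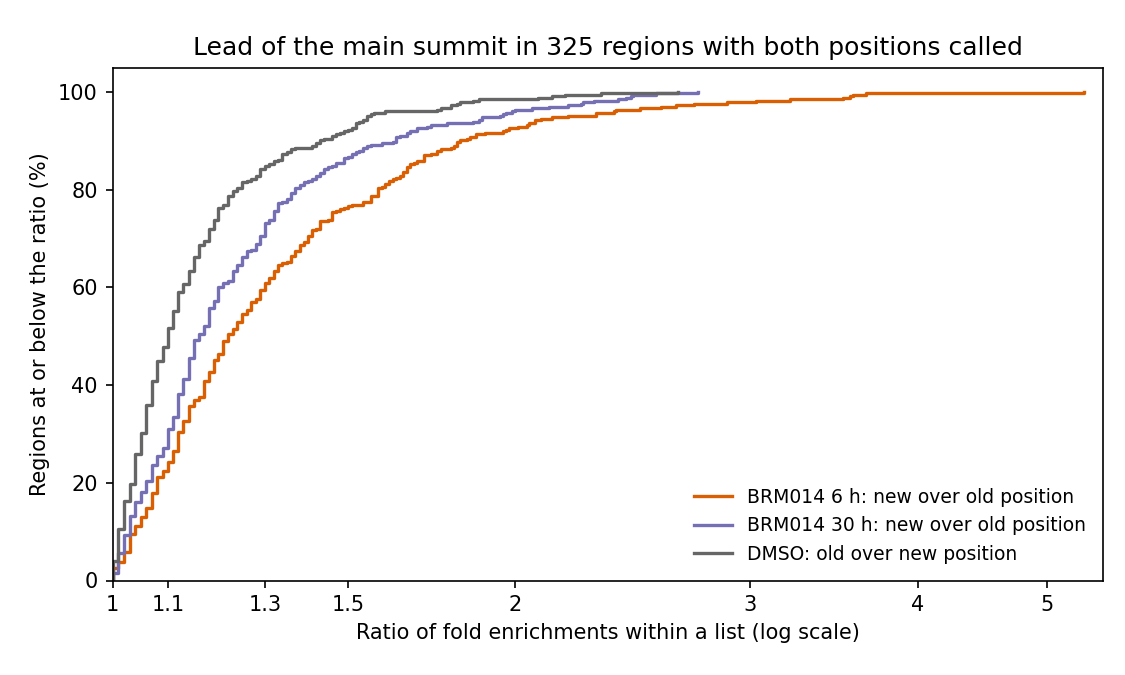
Share of 325 moved regions (%) at or below a given lead of the main summit (ratio of fold enrichments within a list, log scale). In these regions both positions were called in all 3 lists. The median leads are 1.22 at 6 h and 1.16 at 30 h for the new over the old position, and 1.1 in DMSO for the old over the new one.

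In 325 regions, 51.9% of the 626, both positions were called in all 3 lists and the treated main summits lay within 50 bp of each other. There the pileup of each position was set against that expected from DMSO at the depth of the treated list, taking the lowest background as a measure of depth. The positions were chosen by their rank in fold enrichment, from which the pileup is solved, so lower values at the old than at the new position follow from the choice and are given as a description only. At the new position the pileup found was a median of 1.04 times that expected at 6 h (0.994 to 1.1) and 1.14 times at 30 h (1.11 to 1.18). At the old position it was 0.697 times at 6 h (0.651 to 0.733) and 0.868 times at 30 h (0.832 to 0.900). Main summits that stayed within 50 bp in other kept regions had 0.861 times the expected pileup at 6 h and 1.0 times at 30 h, and runner-up DMSO summits still called in other kept regions had 0.859 and 1.0 times. Divided by the values of the main summits, the new position stood at 1.2 and the old at 0.809 at 6 h, and at 1.14 and 0.864 at 30 h. Those main summits were chosen for staying in place. Values above or below theirs thus also follow in part from the choice and are a description only.

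**Figure D4:**
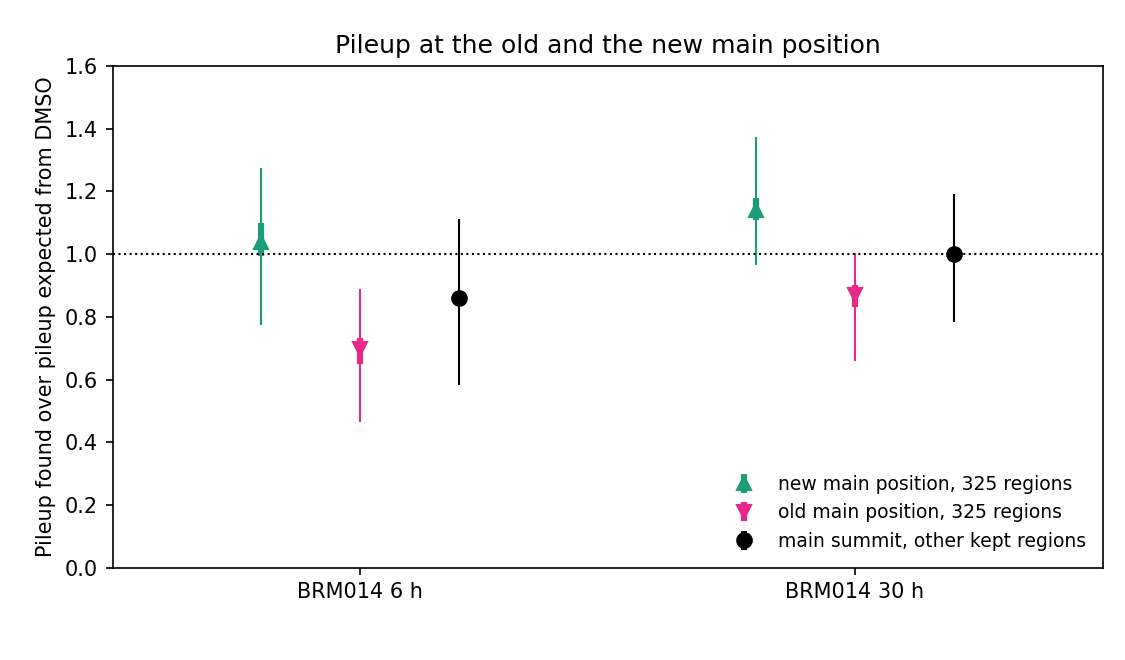
Pileup found over pileup expected from DMSO at equal depth, at 6 h and at 30 h, for the new and the old main position of 325 moved regions and for the main summit of other kept regions. Symbols are medians, thick bars their 95% intervals from binomial ranks and thin bars the quartiles. The old position has medians of 0.697 and 0.868, and other regions 0.861 and 1.0. Quartiles of the old position overlap little with those of the new one. The old and new positions were chosen by rank in these lists, so these contrasts follow at least in part from the choice.

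In 8 of the 325 regions, 2.46%, the interval of the leading summit lay above 50% at 6 h, at 30 h and in DMSO. The regions were chosen by the same values and the 8 picked among 325, so this describes the width of their leads and is no test. The first lies on chromosome 9 from 121755693 to 121756592. Its new main summit was 237 bp away at 6 h and 253 bp away at 30 h. In the 6 h list the new position had a pileup of 47 and the old one 12, in the 30 h list 33 and 17, and in DMSO 27 and 63. The new position thus led by ratios of fold enrichment of 3.66 and 1.88 in treated cells, and the old one by 2.32 in DMSO.

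On chromosome 3, from 98027736 to 98028465, the lead passed to a site 369 bp away at 6 h and 366 bp away at 30 h. New and old positions had pileups of 60 and 16 at 6 h, 83 and 32 at 30 h, and 92 and 168 in DMSO. Most of the change here lay at the old position, whose pileup at 6 h was far under its DMSO value also for a list of 63.0% depth.  The region on chromosome 12 from 33063311 to 33064827 held 4 summits at 6 h, 5 at 30 h and 4 in DMSO. Its lead moved by 937 and 932 bp, and the new position had pileups of 111 at 6 h and 154 at 30 h against 94 in DMSO, although DMSO was the deepest list. The old position had 69, 92 and 171.

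Chromosome 7 held an exchange between the only summits of a region, from 26161565 to 26162643. The site 505 bp away at 6 h and 508 bp away at 30 h had a pileup of 189 and 311, and 299 in DMSO, while the old site had 75 and 174, and 465 in DMSO. On chromosome 10, from 31328743 to 31329800, the shifts were 316 and 321 bp and the ratios of fold enrichment were 1.46 at 6 h, 1.69 at 30 h and 1.51 in DMSO. The sixth by size of the smallest ratio, on chromosome 15 from 36960677 to 36961847, had ratios of 1.47, 2.25 and 1.34 but pileups of only 49 and 33 at 6 h, and its interval held 50% in at least 1 list. The other 3 of the 8 regions were named after their values were seen. One spans 53703520 to 53704591 on chromosome 12, with a DMSO ratio of 1.28. Another spans 114412561 to 114413407 on chromosome 13, with 1.21, and the last 173432410 to 173433376 on chromosome 1, with 1.3.

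**Figure D5:**
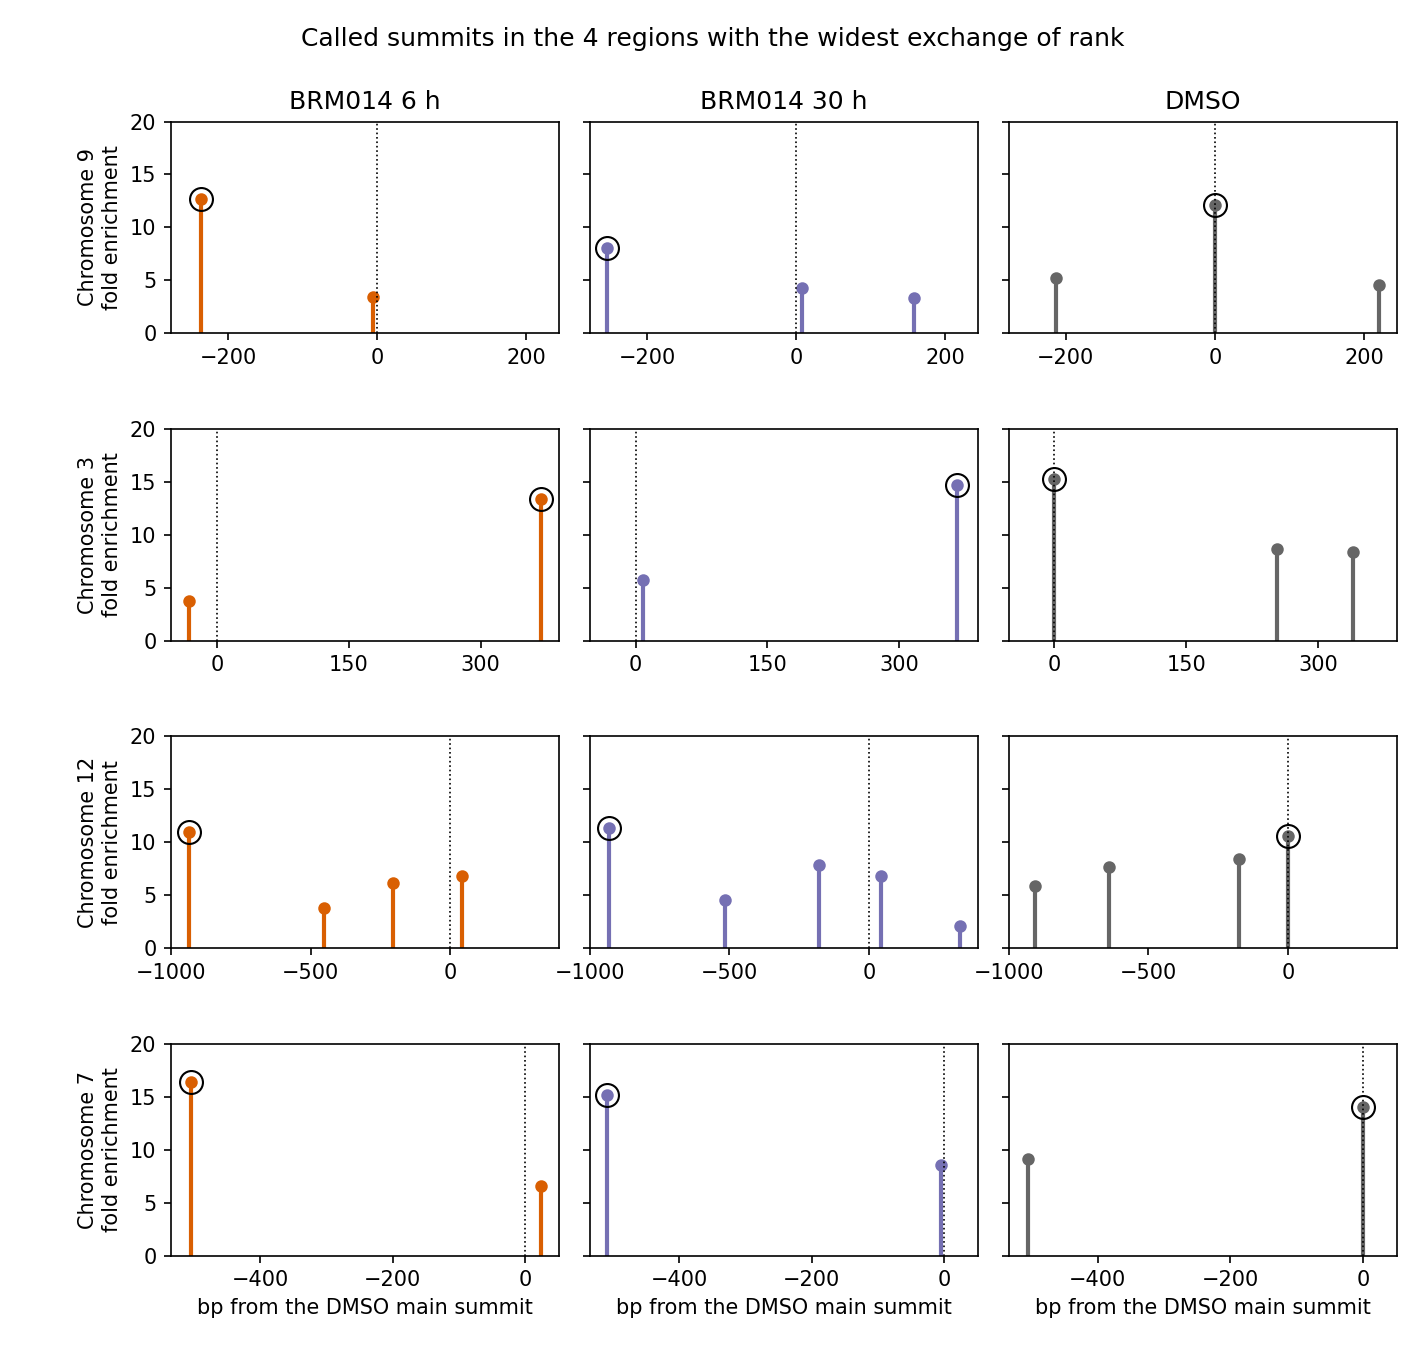
Called summits of the 4 moved regions with the widest exchange of the lead, by distance from the DMSO main summit (bp) and fold enrichment, with the lists side by side; circles mark the main summit of each list and the dotted line the DMSO position. The circle moves from the dotted line in DMSO to a site 237 to 937 bp away at 6 h, and heights are to be compared within a list.

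The 6 moved regions with the highest DMSO fold enrichment had moves of 102 to 273 bp at either time, and 2 of them are among the 325 with both positions called in all lists. The strongest, on chromosome 18 from 55020318 to 55020928, had main summits of fold enrichment 15.3 at 6 h, 20.1 at 30 h and 22.4 in DMSO. Its old position was still called at 14.2 at 6 h and 18.8 at 30 h, so its summits were near ties after treatment. On chromosome 7, from 6335647 to 6336370, 1 summit was called in DMSO and the main summit moved by 127 and 147 bp. On chromosome 15, from 6514877 to 6515513, every list had a single summit, with pileups of 70 at 6 h, 232 at 30 h and 630 in DMSO. This summit lay 110 bp from its DMSO position at 6 h and 102 bp at 30 h.

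Of the others, those at 38906237 to 38906879 and 38227064 to 38228090 are on chromosome 18, and that at 81375204 to 81375853 is on chromosome 9. All 3 had low treated pileups, from 41 to 51 at 6 h and from 56 to 69 at 30 h, against 258 to 403 in DMSO. On chromosome 18 from 38227064 the region was also narrower, with widths of 691 bp at 6 h and 549 bp at 30 h, against 1027 bp in DMSO. Its pair of DMSO summits gave way to 1 summit at each time.

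Ranked by the shorter of their shifts, the 6 longest moves were found in wide regions with several summits. The first, on chromosome 8 from 129258787 to 129261153, shifted by 1296 bp at 6 h and 1298 bp at 30 h, and its region was 1057 bp wide at 6 h, 2355 bp at 30 h and 2367 bp in DMSO. The old summit was not called at 6 h and had a pileup of 125 at 30 h, against 355 in DMSO. A region on chromosome 1 from 87689791 to 87691417 was also shortened at 6 h, to 1035 bp, against 1627 bp in DMSO, with shifts of 1051 and 1058 bp. On chromosome 19, from 5793144 to 5795461, the lead went to different sites, 1033 bp away at 6 h and 1737 bp away at 30 h. Fold enrichment was low there in all lists, 4.83 at 6 h, 4.96 at 30 h and 4.76 in DMSO. The next in length were the chromosome 12 region with 4 DMSO summits described above, one on chromosome 5 from 37187056 to 37188377 with shifts of 855 and 875 bp, and one on chromosome 11 from 75323203 to 75324492 with shifts of 886 and 845 bp.

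Values near the limit of 100 bp ran on without a gap. Just inside it were regions on chromosome 2 from 34383875 to 34384634, with shifts of 104 bp at 6 h and 100 bp at 30 h, on chromosome 1 from 63822806 to 63823350, with 125 and 101 bp, and on chromosome 8 from 124430397 to 124432074, with 101 and 112 bp. Just outside were regions on chromosome 3 from 27588842 to 27589601, with 122 and 99 bp, on chromosome 14 from 54841775 to 54842625, with 99 and 106 bp, and on chromosome X from 13038523 to 13039321, with 99 and 126 bp. In none of these 6 was the old summit still called at either time.

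Moved regions were spread over all 20 chromosomes of the lists. Their share of kept regions ran from 1.77% on chromosome 17 (1.11 to 2.81%) to 3.84% on chromosome X (2.50 to 5.85%), and these intervals overlap. The share over all kept regions, 2.86%, lay just above the interval of chromosome 17 and within that of every other chromosome. They fell in 501 windows of 1 Mb, of which 400 held a single one. At most 4 lay in a window, on chromosome 11 from 70000001 to 71000000 among 34 kept regions, on chromosome 19 from 46000001 to 47000000 among 37, and on chromosome X from 7000001 to 8000000 among 32.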

How the data were processed

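Per the submitters' processing notes, peaks came from MACS2 2.1.2 and positions are on mm9. Which aligner, read filters, Tn5 shift and caller options were used is not given in the sources used here. Both replicates of a group share 1 deposited list, per the labels. Per entry the authors deposited a score (540 to 1000), the fold enrichment as a ratio over local background, -log10 p and the summit offset. The -log10 p was described in place of the -log10 q planned, which was not used here. Fold enrichments were compared within a list only.

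Entries sharing an interval were merged, giving 25922 regions at 6 h, 38422 at 30 h and 42310 in DMSO, and an overlap of 1 bp linked regions. Summits within 50 bp counted as 1 position. MACS2 defaults were assumed, with 1 added to pileup and to background in the fold enrichment, and a Poisson p. Whole pileups solved on that basis gave back the -log10 p of 100% of entries to within 0.001. Lowest backgrounds, 2.12 at 6 h, 2.72 at 30 h and 3.37 in DMSO, were taken to scale with depth. Read totals were not analysed here.

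Linking and pileups were checked on planted values. Members, lists of regions and alternatives were chosen with earlier results of these data known. Named regions were the 6 with the highest DMSO fold enrichment, the 6 with the longest shorter shift, the 6 with the clearest exchange (largest smallest ratio), the 3 on either side of 100 bp and the 3 windows with the most members. Python 3.11.15, pandas 2.3.3 and scipy 1.17.1 were used.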

Additional observations from a re-analysis of the deposited data

How the results depend on the processing

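No paired analysis was possible because replicates were pooled within every list, which also barred leaving one out. The number of regions moved at both times was 961 with a limit of 50 bp, 361 with entries at a score of 1000 only and 334 with the same number of regions from every list. All 12 settings, the one reported included, kept the 6 h list standing apart more often than DMSO, and DMSO more often than 30 h. Values beyond the reported interval follow as shares of kept regions: moved at both times, then 6 h and DMSO apart, 30 h and DMSO apart, 30 h and 6 h apart, then DMSO, 6 h and 30 h standing apart. From 50 bp they were 4.39%, 10.7%, 7.43%, 8.76%, 3.62%, 4.52% and 2.39%. From 150 bp they were 2.32%, 4.97%, 4.08%, 4.47%, 2.11%, 2.43% and 1.45%. From 200 bp they were 1.93%, 4.08%, 3.34%, 3.66%, 1.75%, 1.96% and 1.23%. A longer limit lowers these shares by construction. At a score of 1000 the first 4 were 2.64%, 5.81%, 4.6% and 5.0%. With lists of equal number all 7 were 2.03%, 5.07%, 3.70%, 4.43%, 1.89%, 2.63% and 1.41%. With the same position set at 25 bp the last 3 were 2.17%, 2.57% and 1.49%. New summits at a called DMSO summit at 6 h and 30 h, then old summits still called, were 55.2%, 58.7%, 46.2% and 52.5% from 50 bp, 88.8%, 90.7%, 79.9% and 86.0% from 150 bp, and 91.9%, 94.1%, 86.0% and 90.8% from 200 bp. With 25 bp as the same position they were 67.3%, 72.2%, 53.7% and 63.1%, and with 75 bp the first was 84.2% and the last pair 73.8% and 79.2%. The median DMSO lead was 1.15 from 50 bp and 1.18 as a ratio of -log10 p, which is another scale. For the other settings the cause was not tested. The remaining 84 of these values, and 55 of 77 lesser ones, stayed within their interval or, for counts, within 1.5 times. Ranking by recovered pileup was chosen after seeing the data, and 597 of the 626 regions were also found with it. Fewer of the 626 were found with lists of equal number, 325, with entries at a score of 1000 only, 343, and from 200 bp, 422. At the recovered pileups most leads in the moved regions lay within counting error, most often in DMSO, the list that the rule sets apart. Where 6 h stood apart, the interval held 50% in 79.4% of regions in the 6 h list and 50.7% in DMSO. Where 30 h stood apart, it did so in 84.1% in the 30 h list and 65.0% in DMSO. No setting varied depth.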
